A study of Mus musculus with 41 samples.

Results

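SOX9 binding on the chromatin of epidermal stem cells (EpdSCs) was compared before doxycycline (DOX) and after 1 week of it by setting 2 lists of SOX9 peaks against each other. The D0 list held 792 peaks and the W1 list 15651, out of 328105 peaks in the 18 lists of the series. A peak was called shared if it had 1 bp or more in common with a peak of the other list. By this rule 722 D0 peaks met 731 W1 peaks, 70 D0 peaks were D0-only and 14920 W1 peaks were W1-only. The regions were chosen by overlap alone, so that signal, sequence and gene context were left to be described.

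The peaks came from CUT&RUN (CNR), in which a nuclease held by an antibody cuts and frees the DNA around a bound protein. Both groups were male CD1 mice of the genotype K14rtTA; TRE-myc-Sox9, in which the Krt14 promoter drives the DOX-dependent activator rtTA, and rtTA with DOX then switches on MYC-tagged *Sox9*. The D0 mice were 21 postnatal days old and the W1 mice, injected with DOX at day 21 and kept on DOX feed, were 28 days old, so that age and DOX cannot be told apart. Cells were sorted from back skin as negative for CD31, CD45, CD117, CD140a and CD34, high for CD49f and high for Ly6A, and the same anti-SOX9 antibody was used in both groups. An antibody against SOX9 does not separate the protein of the transgene from that of the endogenous gene.

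SOX9 is a transcription factor of the hair follicle and its stem cells (HFSCs) and is silent in most cells of the epidermis between follicles. Its HMG domain bends DNA at short words of the CATTGT or CTTTGT kind, and it is called a pioneer factor because it can bind sites wrapped in nucleosomes. SOX9 can also sit as a dimer on 2 such words that face each other, as described for cartilage genes. AP1 is a family of dimers of FOS and JUN proteins that occupies many enhancers of keratinocytes, and MLL3 and MLL4 (MLL3/4) are the methyltransferases that mark enhancers.

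The sequences that the comparison turned on are shown as 101 bases centred on the maximum signal (mm10, plus strand). Capitals mark a SOX word on either strand, which was CCATTGT or its variants CCTTTGT and likewise GCATTGT and finally GCTTTGT. They also mark an AP1 word, TGACTCA or its variant TGAGTCA, on either strand. In an inward SOX pair they mark both cores, where ACAAAG or its variant ACAATG was followed after 3 to 5 bases by a core on the other strand, CTTTGT or the variant CATTGT. The first set holds the 5 W1-only peaks of highest maximum that carry an inward pair, and the highest W1-only peak within 50 kb of *Runx1*. Where words overlap, their capitals run together.
W1-only, nearest to Cadm1, chr9:47340375-47340475: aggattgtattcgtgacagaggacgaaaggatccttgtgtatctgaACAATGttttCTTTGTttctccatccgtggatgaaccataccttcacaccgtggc
W1-only, nearest to Postn, chr3:54444014-54444114: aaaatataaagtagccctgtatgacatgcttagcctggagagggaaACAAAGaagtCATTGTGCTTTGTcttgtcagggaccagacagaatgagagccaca
W1-only, nearest to Cdk19, chr10:40444139-40444239: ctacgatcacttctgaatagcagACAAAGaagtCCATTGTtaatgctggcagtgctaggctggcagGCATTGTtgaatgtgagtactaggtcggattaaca
W1-only, nearest to 5330417H12Rik, chr7:107680260-107680360: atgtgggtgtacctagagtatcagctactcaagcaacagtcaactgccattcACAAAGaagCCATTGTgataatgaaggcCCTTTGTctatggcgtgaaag
W1-only, nearest to Tcf7l2, chr19:55788411-55788511: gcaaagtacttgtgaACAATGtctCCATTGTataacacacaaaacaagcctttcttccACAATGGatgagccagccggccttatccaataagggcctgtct
W1-only, at Runx1, chr16:92551800-92551900: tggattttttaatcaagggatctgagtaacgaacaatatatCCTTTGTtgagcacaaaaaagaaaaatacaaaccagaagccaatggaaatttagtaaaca

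The second set shows shared sites with an AP1 word at both maxima, namely the 4 of highest D0 maximum among those with maxima within 20 bp of each other and outside repeats.
Shared, nearest to Cdc42bpg, chr19:6297732-6297832: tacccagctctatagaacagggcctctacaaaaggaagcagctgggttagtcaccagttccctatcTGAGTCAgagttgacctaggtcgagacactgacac
Shared, nearest to Tgif1, chr17:70746916-70747016: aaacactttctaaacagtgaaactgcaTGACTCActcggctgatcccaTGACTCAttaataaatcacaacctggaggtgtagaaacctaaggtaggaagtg
Shared, nearest to Serpina3n, chr12:104415813-104415913: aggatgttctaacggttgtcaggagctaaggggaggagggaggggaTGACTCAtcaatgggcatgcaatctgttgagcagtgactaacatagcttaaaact
Shared, nearest to Fggy, chr4:95383437-95383537: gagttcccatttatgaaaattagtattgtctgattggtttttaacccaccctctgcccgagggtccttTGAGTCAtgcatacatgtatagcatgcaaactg

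The third set shows 3 shared sites with an AP1 word within 50 bp of the D0 maximum and none at W1, and a SOX word within 50 bp of the W1 maximum and none at D0.
Lpp, D0 maximum, chr16:24364348-24364448: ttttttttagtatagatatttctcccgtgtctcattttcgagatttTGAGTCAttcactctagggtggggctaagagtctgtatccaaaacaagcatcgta
Lpp, W1 maximum, chr16:24365026-24365126: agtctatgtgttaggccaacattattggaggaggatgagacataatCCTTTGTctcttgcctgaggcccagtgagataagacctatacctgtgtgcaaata
Il1rn, D0 maximum, chr2:24336676-24336776: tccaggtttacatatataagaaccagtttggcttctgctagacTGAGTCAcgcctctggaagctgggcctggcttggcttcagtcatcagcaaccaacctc
Il1rn, W1 maximum, chr2:24336453-24336553: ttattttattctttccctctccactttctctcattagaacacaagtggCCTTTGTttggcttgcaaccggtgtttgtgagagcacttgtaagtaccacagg
H60c, D0 maximum, chr10:3313134-3313234: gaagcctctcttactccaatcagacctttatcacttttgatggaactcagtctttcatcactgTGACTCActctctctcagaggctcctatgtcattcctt
H60c, W1 maximum, chr10:3313552-3313652: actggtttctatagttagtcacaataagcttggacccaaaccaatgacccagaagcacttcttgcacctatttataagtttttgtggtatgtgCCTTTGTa

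The fourth set shows D0-only peaks in coding exons of *Grhl1*, which encodes a transcription factor of epidermal cells, and in repeats near the start of chromosome 9.
Grhl1 exon, D0-only, chr12:24581471-24581571: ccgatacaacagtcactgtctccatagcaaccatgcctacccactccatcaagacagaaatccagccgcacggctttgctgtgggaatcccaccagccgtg
Grhl1 exon, D0-only, chr12:24575966-24576066: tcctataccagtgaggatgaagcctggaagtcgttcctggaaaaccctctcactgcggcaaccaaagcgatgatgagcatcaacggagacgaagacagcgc
Repeat at Gm10718, D0-only, chr9:3023473-3023573: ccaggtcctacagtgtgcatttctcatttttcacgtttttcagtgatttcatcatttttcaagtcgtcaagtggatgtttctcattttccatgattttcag

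Each group had 2 samples pooled by the authors into 1 list, so no spread between mice was known and no test between D0 and W1 was made. Shares are given with 95% Wilson intervals, which cover the counting of peaks only. The signal was in RPKM, and 1 fragment was worth 30.7 RPKM at D0 and 57.6 RPKM at W1, so that the weakest peak rested on 59 fragments at D0 and on 32 at W1. The part of this gap in depth in the length of the lists was not tested beyond a count at 59 fragments in both. That count left 792 D0 peaks, 281 of them D0-only, and 4851 W1 peaks, 4340 of them W1-only. Marker genes of the sorted cells were looked up for MLL3/4 peaks at D0 within 1 kb of a start. The share over all protein-coding starts is not given here, so that these counts do not measure the purity of the sort. Of 5 genes of EpdSCs, *Krt5*, *Krt14*, *Trp63* and *Itga6* had such a peak and *Ly6a* had none, and of 3 genes of HFSCs, *Krt15* had one while *Cd34* and *Lgr5* had none. Fibroblast, endothelial and immune genes had 0 of 6, 0 of 5 and 0 of 5, and melanocyte genes had 2 of 6, *Mitf* and *Dct*.

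Nearly the whole of the D0 list lay inside the W1 list, while the W1 list was for the most part outside the D0 list. A W1 peak overlapped 91.2% of D0 peaks (89.0 to 92.9), and a D0 peak overlapped 4.67% of W1 peaks (4.35 to 5.01). Of the 722 shared D0 peaks, 12 met 2 W1 peaks. The shared peaks gathered in the strong end of the W1 list, making up, of its 10 deciles by maximum, 0.639% (0.347 to 1.17) of the weakest and 11.7% (10.2 to 13.4) of the strongest. When the W1 list was reduced to its 792 strongest peaks, it covered 12.1% of D0 peaks (10 to 14.6), and when it was held to peaks of at least 59 fragments, it covered 64.5% (61.1 to 67.8).

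The classes differed in height and width, although the limit of 1800 RPKM on both lists ties class to height. W1-only peaks had a median maximum of 2651 RPKM (quartiles 2132 to 3573) and a median width of 676 bp (515 to 891). Shared W1 peaks were taller and wider, with a median maximum of 4091 RPKM (3169 to 5388) and a width of 853 bp (644 to 1132). Within their own list, the median shared W1 peak stood at percentile 80.2 by maximum and 80.0 by total signal, which adds up the RPKM of each base in a peak, against 48.4 for W1-only peaks by both.

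At D0 the classes differed more in width than in height. Shared D0 peaks had a median maximum of 2213 RPKM (1967 to 2582) over 615 bp (488 to 816), and D0-only peaks had 2352 RPKM (1998 to 3312) over 271 bp (158 to 502). D0-only peaks were thus narrow for their height, at percentile 60.5 of the D0 list by maximum and 19.2 by total signal. Without the 22 of them in *Grhl1* and in repeats near the start of chromosome 9, the other 48 had a median maximum of 2121 RPKM, below that of shared D0 peaks, over 448 bp. The maximum passed 3600 RPKM in 17.1% of D0-only peaks and 6.65% of shared D0 peaks, and in 25% of W1-only peaks and 62.4% of shared W1 peaks. Most D0 peaks lay just above the limit of 1800 RPKM that the authors set on the list.

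**Figure D1:**
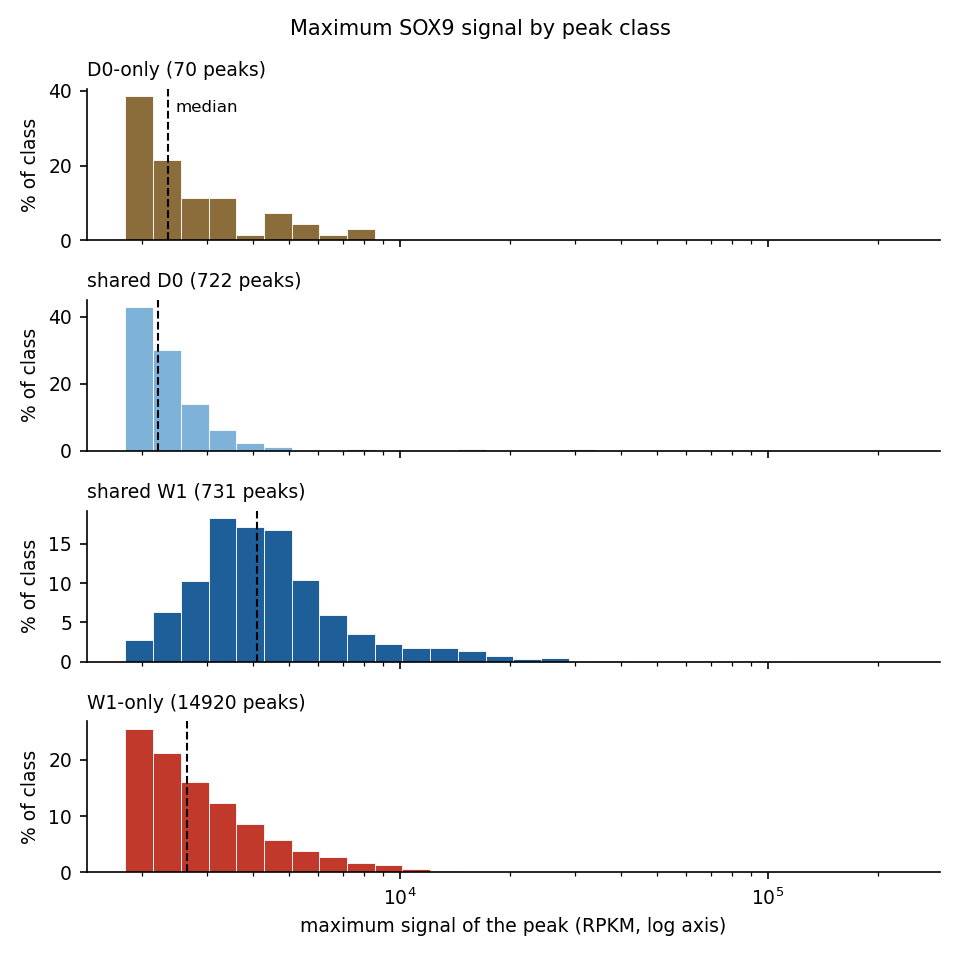
Maximum SOX9 signal of the peaks (RPKM, log axis) as a percentage of each class, with the median dashed. The D0 classes and the W1-only class pile up just above the limit of 1800 RPKM, whereas the 731 shared W1 peaks centre on 4091 RPKM.

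At the 722 shared sites the signal on the RPKM scale, which is scaled by depth, was higher at W1 at nearly every site. In fragments, not scaled for the greater depth at D0, the median maximum was 72.0 in shared D0 peaks and 71.0 in shared W1 peaks. Against the strongest W1 peak that it met, a D0 peak had a median ratio of W1 to D0 maximum of 1.75 (interval of the median 1.69 to 1.83, quartiles 1.37 to 2.28). The W1 maximum was the higher one at 675 sites (93.5%, 91.5 to 95.1), at least 2 times the D0 maximum at 279, and the lower one at 47. By total signal the median ratio was 2.63 (2.52 to 2.73), and the peaks were wider at W1 at 572 sites (79.2%, 76.1 to 82.0), by a median ratio of 1.27 (quartiles 1.04 to 1.70). A site entered only when it passed 1800 RPKM in both lists. At the 42 sites left when 3600 RPKM was asked of both, the median ratio was 1.06 (0.761 to 1.55).

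The sites with the highest ratio were distal, with 1 exception, and not strong at D0. An intronic peak 149548 bp from the start of *Ahr*, the aryl hydrocarbon receptor, went from 1936.73 RPKM (rank 610 of the D0 list) to 18381.9 RPKM (rank 12 of the W1 list), a ratio of 9.49. Its width went from 555 to 2200 bp. The exception was a peak at a start 4643 bp from the nearest protein-coding one, that of *2010111I01Rik*, with a ratio of 8.37.

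The 3 that followed were intronic. They lay nearest to *Acvr1b*, an activin receptor (2028.95 to 16192.2 RPKM, ratio 7.98), *Slc7a11*, the cystine transporter (2121.18 to 16768.4 RPKM, ratio 7.91), and *Nhsl1* (2274.89 to 16883.7 RPKM, ratio 7.42). Each of these 3 held a SOX word at the W1 maximum, and none of the 5 held an AP1 word. Over all shared sites, the median ratio was 2.36 (quartiles 1.66 to 4.20) at the 91 with a SOX word at the W1 maximum, 1.70 (1.33 to 2.19) at the 631 without, and 1.65 (1.31 to 2.03) at the 283 with an AP1 word.

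The sites with the lowest ratio were repeats. Soft-masking, the lower case by which the reference genome marks repeats, covered at least 50% of the window at the W1 maximum at 13 of the 47 sites with a lower W1 maximum (27.7%, 16.9 to 41.8), and at 7 of the other 675 (1.04%, 0.503 to 2.12). The lowest ratio of all, 0.249, belonged to an intronic repeat nearest to *Rpusd4*, where the maximum was 149313 RPKM at D0 and 37224.8 RPKM at W1. The next 3 distinct loci were a repeat nearest to *Rab10* (0.250), one in *Gm21738* (0.258) and 2 peaks at *Gm10801* (0.278 and 0.291). All 10 of the tallest D0 peaks were shared, and 6 of their windows were masked. The tallest peak of both lists, at the start of the predicted gene *Gm10800*, had 225029 RPKM at D0 and 97729.5 RPKM at W1. Peaks near *Chl1* and *Pak3*, ranked 3 and 4 at W1, passed as unmasked, yet their windows shared a run of 50 identical bases. Leaving out masked windows changed the share of D0 peaks met at W1 to 93.3% (91.3 to 94.9).

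**Figure D2:**
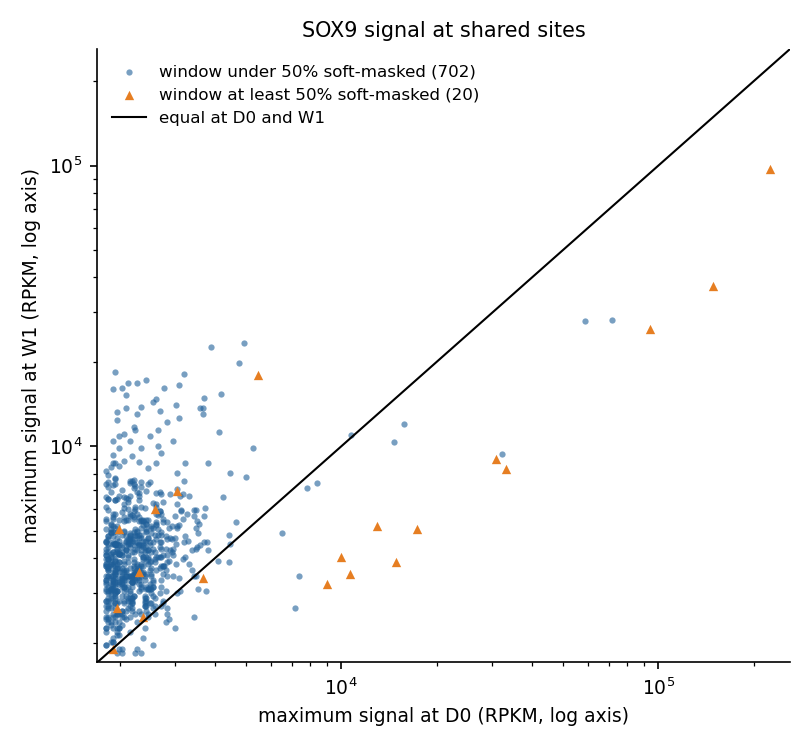
Maximum SOX9 signal at D0 (horizontal) and W1 (vertical) at the 722 shared sites, both in RPKM on log axes, with the line of equality. Most of the 702 sites outside masked repeats lie above the line, and the repeats with the highest D0 signal (triangles) lie below it.

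Peaks seen at both times mostly had their maxima at the same place. The maxima were 10 bp apart at the median (quartiles 2.00 to 62.8), within 20 bp at 430 sites and over 100 bp apart at 103 (14.3%, 11.9 to 17.0). At these 103 sites the shares of words at the maximum, that is within 50 bp of it, differed between the 2 times. An AP1 word lay at 42.7% of their D0 maxima (33.6 to 52.4) and at 13.6% of their W1 maxima (8.27 to 21.5). A SOX word lay at 3.88% of the D0 maxima (1.52 to 9.56) and at 18.4% of the W1 maxima (12.1 to 27). An AP1 word at D0 alone together with a SOX word at W1 alone was found at 6 sites. Among them were the sites at *Lpp*, *Il1rn* and *H60c* printed above, where the maxima lay 678, 223 and 418 bp apart.

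Over all 722 sites, the AP1 word was at 346 D0 maxima (47.9%, 44.3 to 51.6) and at 283 W1 maxima (39.2%, 35.7 to 42.8), with 256 sites in common. The SOX word was at 64 D0 maxima (8.86%, 7.0 to 11.2) and at 91 W1 maxima (12.6%, 10.4 to 15.2), with 55 in common. It was gained at 36 sites and lost at 9. In windows 1 kb to either side of the shared D0 maxima, the SOX word was in 5.96% and the AP1 word in 2.35%. The SOX word was thus little above its surroundings at D0. Of the AP1 sites printed above, the one near *Cdc42bpg* had 4672.74 RPKM at D0 and 5358.99 RPKM at W1, and the one near *Fggy* had 4119.39 and 11294.2 RPKM.

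W1-only peaks carried SOX words more often and AP1 words less often than shared W1 peaks. A SOX word lay within 50 bp of the maximum in 18.7% of W1-only peaks (18.1 to 19.3), against 6.48% of windows 1 kb to either side. In shared W1 peaks the share was 12.7% (10.5 to 15.3), with 5.88% beside them. The AP1 word was the reverse, at 15.1% of W1-only peaks (14.5 to 15.7, 2.04% beside) and 38.6% of shared W1 peaks (35.1 to 42.2, 1.85% beside). Both words together were at 1.92% of W1-only and 3.01% of shared W1 peaks, and neither was at 68.1% and 51.7%.

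D0-only peaks held a SOX word in 1 of 70 (1.43%, 0.253 to 7.66) and an AP1 word in 14 (20%, 12.3 to 30.8). In the windows beside them the shares were 6.43% and 2.14%. Words of 6 other factor families were counted in the W1 peaks. The SP/KLF word GGGCGGG lay within 50 bp of the maximum in 4.54% of W1-only peaks (1.07% beside them). Within 1 kb of a start it was in 16.8% of W1-only peaks (15.5 to 18.1), more than the SOX or AP1 word there (11.8% and 8.25%), and in 4.55% of shared W1 peaks (2.22 to 9.08). Over all W1-only peaks and the windows beside them, the TEAD word GGAATGT was in 2.43% and 1.32%. The ETS word CCGGAAG was in 0.891% and 0.432%. The GATA words AGATAAC and, as its variant, AGATAAG were found in 3.21% of W1-only windows and 2.36% beside them, and the RUNX word AACCACA in 2.12% and 2.40%. The longer CTCF word was in 0.214% and 0.241%. Over all 731 shared W1 peaks, at starts or not, each of these 6 words was at 2.33% or fewer.

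The share of both words differed along the W1 list. Among W1-only peaks, the SOX word went from 12% of the weakest decile of the W1 list to 38.0% of the strongest (35.5 to 40.6), in which maxima passed 5359 RPKM. The AP1 word stayed between 14.2% and 16.9% up to decile 9 and was at 10.6% of the strongest. In the strongest decile, shared W1 peaks held a SOX word in 29.9% (23.7 to 36.9) and an AP1 word in 21.2% (15.9 to 27.7). In decile 9 they held them in 7.14% and 43.4%, against 27.3% and 14.5% of W1-only peaks. The excess of AP1 in shared peaks was not seen among the 792 strongest W1 peaks, where it was at 11.3% of the shared (6.45 to 19.2) and 9.64% of the others (7.66 to 12.1), and where the SOX word was at 42.3% (32.9 to 52.2) and 40.3% (36.7 to 44.0).

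**Figure D3:**
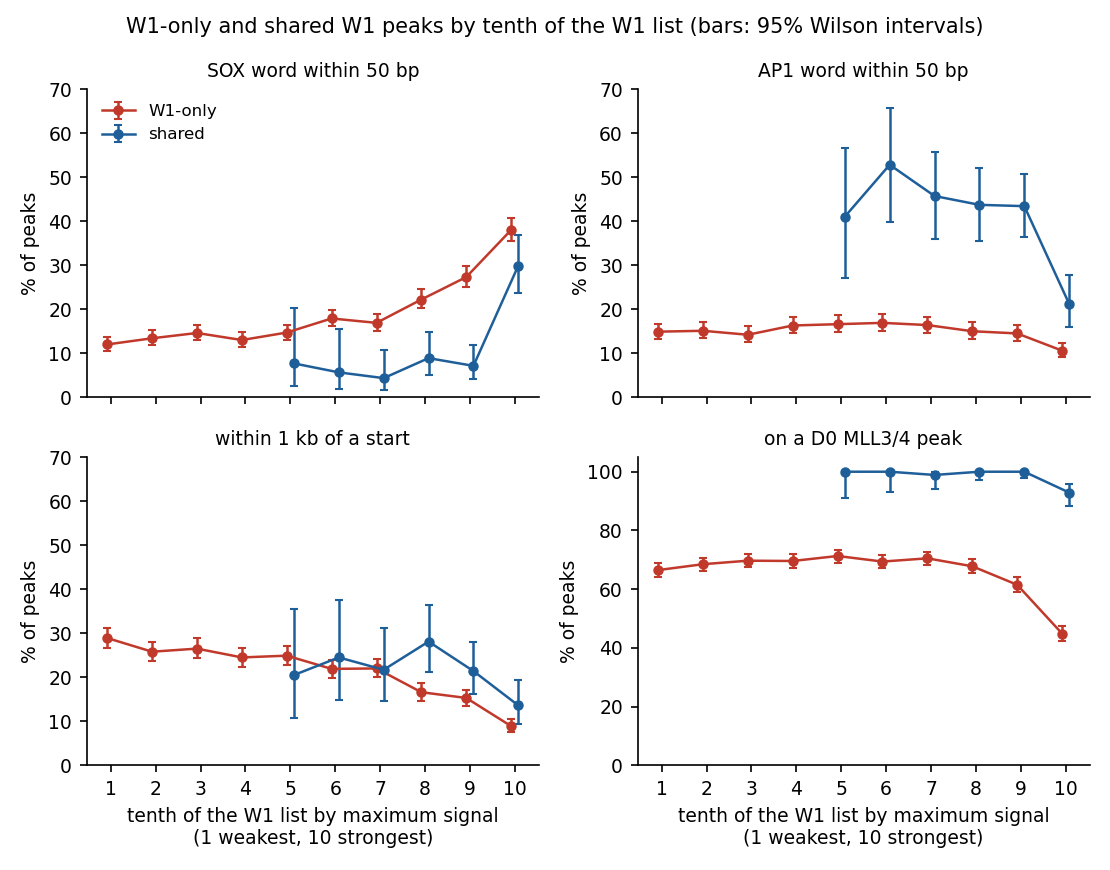
Percentage of W1-only (red) and shared (blue) W1 peaks with a SOX word, an AP1 word, a start within 1 kb or a D0 MLL3/4 peak, by decile of the W1 list (1 weakest, 10 strongest, each a part of equal size), with 95% Wilson intervals. Shared peaks are drawn from decile 5, the first with at least 39 of them. The SOX word in W1-only peaks climbs to 38.0% while their D0 MLL3/4 share drops to 44.9%.

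Some W1-only sites held SOX cores as inward pairs. Cores facing each other with a gap of 3, 4 or 5 bases were in 66, 94 and 53 W1-only windows, 213 in all (1.43%, 1.25 to 1.63), and in 3 of 29840 windows beside them. Other gaps from 0 to 12 bases gave 2 to 11 windows each. In the outward orientation no gap gave more than 7 windows. On the same strand the gap of 1 base gave 35 windows, and the others gave 3 to 10.

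The pairs gathered where maxima were high and where D0 MLL3/4 was absent. They were in 6.44% of the W1-only peaks of the strongest decile (5.26 to 7.86) and in 0.450% of the weakest (0.218 to 0.926), and in 13 of the 100 tallest. They were in 0.213% of W1-only peaks on a D0 MLL3/4 peak (0.139 to 0.325), in 2.69% of those on a W1 MLL3/4 peak alone (2.18 to 3.31) and in 5.75% of those on neither (4.78 to 6.91). Of the shared W1 peaks 9 of 731 held a pair (1.23%, 0.649 to 2.32), all 9 in the strongest decile, with a median maximum of 13830 RPKM. Of the D0-only peaks 0 of 70 did, which allows a share of up to 4.29% when 3 counts are taken as the limit of a count of 0, or 5.2% as the Wilson upper limit. The windows printed above near *Cadm1*, *Postn*, *Cdk19*, *5330417H12Rik* and *Tcf7l2*, the last encoding a transcription factor of the WNT pathway, had maxima of 19822.5, 17863.3, 16480.3, 16422.7 and 14866.9 RPKM.

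**Figure D4:**
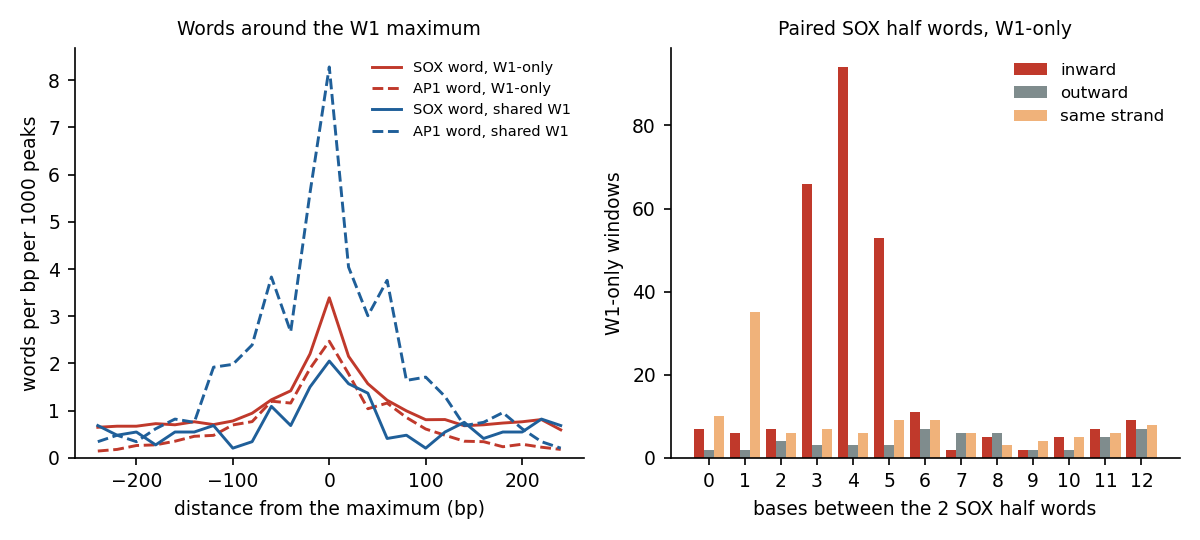
Left, SOX (solid) and AP1 (dashed) words per bp per 1000 peaks by distance from the W1 maximum (bp) in W1-only (red) and shared (blue) peaks. Right, W1-only windows with 2 SOX cores by the number of bases between them and by orientation. The words peak at the maximum, and inward pairs stand out at gaps of 3, 4 and 5 bases (66, 94 and 53 windows).

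MLL3/4 peaks at D0 separated the classes further. The D0 MLL3/4 list held 37072 peaks and the W1 list 31539. A D0 MLL3/4 peak overlapped 97.7% of shared W1 peaks (96.3 to 98.5) and 66.2% of W1-only peaks (65.5 to 67.0). Moved by 10 kb to either side, the same peaks met one in 11.6% and 6.96%. At W1 the shares were 97.5% and 81.3% (80.6 to 81.9). Of the W1-only peaks 59.8% were on MLL3/4 at both times, 6.37% at D0 alone, 21.4% at W1 alone and 12.3% at neither.

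W1-only peaks without MLL3/4 at D0 had the SOX word more often. It was in 31.4% of those 5041 peaks (30.1 to 32.7) and in 12.2% of the 9879 with MLL3/4 at D0 (11.6 to 12.9). The AP1 word was in 11.7% (10.9 to 12.7) and 16.8% (16.1 to 17.5). The strongest decile of W1-only peaks was the least covered by D0 MLL3/4, at 44.9%, and the most covered by W1 MLL3/4, at 94.9%. Only 17 shared W1 peaks had no MLL3/4 at D0, and 13 of them held a SOX word. With the 50% of MLL3/4 peaks of highest total signal, the D0 shares were 94.0% for shared and 51.2% for W1-only peaks.

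The 10 tallest W1-only peaks were all distal. None lay within 1 kb of a start, 7 were on no D0 MLL3/4 peak and all 10 were on a W1 MLL3/4 peak. The SOX word was in 7 of their windows, an inward pair in 4, and the AP1 word in 0. The tallest, both at 19822.5 RPKM or 344 fragments, were introns nearest to the starts of *Arhgap18*, a GTPase-activating protein (chr10:26878796-26879866), and of *Cadm1*, a cell adhesion molecule (chr9:47340183-47340625). Then came peaks nearest to *Tbl1xr1*, a co-repressor subunit (18727.6 RPKM), *Postn*, which encodes the matrix protein periostin (17863.3 RPKM), *Prdx1*, a peroxiredoxin (17632.8 RPKM), and *Clec2d*, a lectin (17459.9 RPKM).

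The list closed with *Reep3* (16826.1 RPKM), *Zfp703*, a zinc finger protein (16595.6 RPKM), *Cdk19*, a kinase of the Mediator complex (16480.3 RPKM), and *5330417H12Rik* (16422.7 RPKM). Distances to these starts reached from 5824 bp for *Prdx1* to 404684 bp for *Tbl1xr1*, so that the nearest gene is a label of the place. Of the 10 tallest shared peaks by W1 maximum, 3 were masked repeats and 2 were the *Chl1* and *Pak3* sites. The other 5 were nearest to *Sgk1*, a kinase (23452.8 RPKM), *Nedd9*, a scaffold of adhesion signalling (22588.4 RPKM), *Slc39a11* (19822.5 RPKM), *Ahr* (18381.9 RPKM) and *Rnf144b* (18093.8 RPKM). Of these 5, all but the *Ahr* site held a SOX word.

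Over all strengths the W1 classes lay in like gene context, but in peaks of at least 59 fragments, in decile 8 and in deciles 9 and 10 together the shared ones were more often at starts. The maximum lay within 1 kb of an annotated transcription start, coding or not, in 21.8% of W1-only (21.1 to 22.4) and 21.1% of shared W1 peaks (18.3 to 24.2), in introns in 40.6% and 38.9%, and in intergenic DNA in 35% and 37.9%. The median distance to a protein-coding start was 19665 bp and 22516 bp. Windows rich in CpG, with over 55% GC and a ratio of observed to expected CpG over 0.6 in 500 bp, made up 8.81% (8.36 to 9.27) and 5.88% (4.40 to 7.83). The share at starts depended on strength, since it was 28.9% in the weakest decile of W1-only peaks and 8.90% in the strongest. Among peaks of at least 59 fragments it was 13.9% of W1-only (12.9 to 14.9) and 20% of shared W1 peaks (16.7 to 23.6). In decile 8 it was 16.6% (14.7 to 18.6) and 28.1% (21.2 to 36.3), and in decile 9 it was 15.3% (13.5 to 17.2) and 21.4% (16.1 to 27.9), where the intervals overlap. They also overlapped in the strongest decile, at 8.90% (7.51 to 10.5) and 13.6% (9.38 to 19.3), although not in deciles 9 and 10 together, at 12.1% (10.9 to 13.3) and 17.5% (13.9 to 21.7). They overlapped too in decile 6 and above 3600 RPKM in both lists, the latter at 13.3% (12.3 to 14.4) and 19% (9.98 to 33.3). In deciles 5 and 7 it was no higher for shared peaks (20.5% and 21.7%) than for W1-only peaks (24.9% and 22.0%). At starts, W1-only peaks had the SOX word in 11.8% (10.7 to 12.9), against 20.6% (19.9 to 21.4) away from them. Neighbouring W1 peaks were 9795 bp from a W1-only maximum and 5453 bp from a shared one at the median, and 12.5% of W1-only peaks had a D0 peak within 50 kb.

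The 70 D0-only peaks fell into 3 groups, namely exons of *Grhl1*, repeats near the start of chromosome 9, and the rest. They lay 14538 bp from the nearest W1 peak at the median (quartiles 3664 to 53434), and 3 of them had one within 500 bp. Within 1 kb of a start lay 31.4% of them (21.8 to 43.0), in a coding exon elsewhere 12.9% (6.91 to 22.7), against 0.277% of shared D0 peaks (0.0760 to 1.00), and in a masked window 30.0% (20.5 to 41.5), against 2.91% (1.91 to 4.41).

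In *Grhl1* (chr12:24572283-24617391, plus strand) there were 10 D0-only peaks, and the maximum of each was in a coding exon. Coding exons made up 4.18% of the bases of the gene and 78.1% of the 1940 bases of these peaks, and 10 of the 17 coding exons were touched. The maxima ran from 1967 to 6794 RPKM and the median width was 182 bp. The tallest peak, of 401 bp, was coding over 97.5% of its length and also lay within 1 kb of an internal start. A shared D0 peak in the gene (2644 RPKM, 1844 bp wide) and 2 W1 peaks (1959 and 10026 RPKM) touched no coding base.

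Most of the exonic peaks of *Grhl1* had a counterpart in the D0 MLL3/4 list. MLL3/4 peaks at D0 met 8 of the 10, and these 8 MLL3/4 peaks were 74.9% coding, against 3.40% for the other 6 in the gene. At W1, 2 MLL3/4 peaks met them (98.7% coding), and the other 4 were 0.891% coding. None of the 10 was met by a SOX9 peak of the 3 later times (W2, W6 and W12). What gave signal limited to exons with more than 1 antibody was not tested.

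Of the other D0-only peaks, 12 lay between bases 3000304 and 3038300 of chromosome 9, all in masked windows and all on a D0 MLL3/4 peak, among them the repeat at *Gm10718* printed above (7255.05 RPKM). The W12 list met 11 of these 12, the W2 list 1 and the W6 list 0. Of the remaining 48, 14 held an AP1 word, 11 lay within 1 kb of a start, 9 were masked and 45 were on a D0 MLL3/4 peak. The W2 list met 20 of them, the W6 list 27 and the W12 list 27.

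The tallest of the 48 was at *Hist1h2bm*, a histone H2B gene, with 7531.72 RPKM over 178 bp. Then came repeats nearest to *Cdk5rap2* (5349.06 RPKM) and *2210408I21Rik* (5195.35 RPKM). The other 7 of the 10 tallest D0-only peaks were 4 in *Grhl1* and 3 in the repeats of chromosome 9, at *Gm10718* and *Gm10722*. None of the 10 held a SOX or AP1 word, and 5 were masked. The only D0-only SOX word, with an AP1 word beside it, was at *Csta1*, which encodes a stefin of keratinising cells (1813.76 RPKM, 59 fragments), a peak named after its values were seen.

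At later times the classes recurred to different degrees. A SOX9 peak of W2, W6 or W12 met 98.6% of shared D0 peaks (97.5 to 99.2), 84.8% of W1-only peaks (84.2 to 85.4) and 74.3% of D0-only peaks (63 to 83.1). For W1-only peaks the W2 list alone gave 76.9%, W6 gave 72.2% and W12 gave 33.5%. The W12 samples were from grafted skin and the lists differed in length, so the times are given side by side only.

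Genes were next described by the peaks in their body or within 50 kb to either side. A W1-only peak lay there for 51.5% of 21951 protein-coding genes, a D0 peak for 6.0%, and 5 or more W1-only peaks for 6.56%. These shares are the background for the gene lists. W1-only peaks were at 42.4% of genes shorter than 10 kb, at 54.8% of those of 10 to 50 kb, at 60.1% of those of 50 to 200 kb and at 57.3% of longer ones. Peaks in lists of neighbouring genes, such as *Krt14*, *Krt15*, *Krt17* and *Krt19*, *Krtdap* and *Sbsn*, or *Ereg* and *Epgn*, were counted for each gene that they reached.

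The transcription factors of both stem cell states were nearly all near W1-only peaks. Of 12 EpdSC factors 11 had one, 5 had 5 or more and 7 had a D0 peak. *Trp63*, the master regulator of the epidermis, had 11, *Tfap2a* had 7, and *Grhl2* and *Klf4* had 5 each, while *Ovol1* had 0. Those with a D0 peak included *Trp63*, *Grhl1*, *Grhl2*, *Grhl3*, *Gata3* and *Zfp750*.

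Of 13 HFSC factors 12 had a W1-only peak, 6 had 5 or more and 4 had a D0 peak, namely *Nfib*, *Vdr*, *Nfix* and *Runx2*. *Runx1*, a factor of hair follicle activation, had 12, the tallest of 11698 RPKM, being the SOX word site printed above, whose nearest start is that of *Clic6*. *Nfib* had 11, *Vdr* 9 and *Tcf7l2* 8. No W1-only and no D0 peak was listed within 50 kb of *Sox9* itself.

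Other HFSC genes and the signalling pathways varied more. Of 12 surface, secreted and keratin markers of HFSCs 10 had a W1-only peak and 2 (*Krt17* and *Dkk3*) a D0 peak. *Cxcl14*, a chemokine, had 9, *Krt17* 8, *Krt15* 4 and *Krt19* 3, and *Cd34* and *Lgr5* had 0. In the hedgehog pathway 8 of 12 had one and none had a D0 peak. *Sufu*, the inhibitor of the GLI factors, had 6, *Gli2* 4 and the transducer *Smo* 2, whereas the ligand *Shh*, the receptor *Ptch1*, *Hhip* and *Gli3* had 0.

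In the WNT pathway 13 of 15 had a W1-only peak and 3 a D0 peak (*Sfrp1*, *Dkk3* and *Wls*). *Apcdd1*, a WNT inhibitor, had 8, the co-repressor *Tle4* 6, and the co-receptors *Lrp5* and *Lrp6* 5 each, while *Lef1* and *Dkk1* had 0. In the Notch pathway 5 of 9 had one, with 4 each for the target *Hes1*, the ligand *Jag1* and the receptor *Notch1* and 3 for the ligand *Dll1*, and *Hes1* and *Dll1* had a D0 peak. In the EGF receptor pathway 7 of 9 had one, with 5 each for the receptor *Erbb3* and the ligand *Tgfa* and 4 each for the ligands *Epgn* and *Hbegf*, and *Egfr* alone had a D0 peak.

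The genes of the basal layer had D0 peaks as often as the EpdSC factors, at 7 of 12. All 12 basal keratins and hemidesmosome genes had a W1-only peak, 10 had 5 or more and 7 had a D0 peak, namely *Col17a1*, *Dst*, *Itgb1*, *Itgb4*, *Krt5*, *Krt14* and *Plec*. *Itga6*, the integrin also called CD49f, had 10, the linker *Plec* 8, and *Itgb4* and *Lama3* 7 each. At the start of *Krt14*, whose promoter also drives rtTA in these mice, the shared maximum was 3535.3 RPKM at D0 and 4898.0 RPKM at W1. At the shared sites near *Krt17* and *Krt5* it was 2551.56 and 1813.76 RPKM at D0, and 3342.16 and 2593.06 RPKM at W1.

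Of 9 AP-1 subunits 8 had a W1-only peak, with 7 for *Fosl2*, 6 each for *Atf3* and *Fos* and 4 each for *Fosb* and *Fosl1*, and *Atf3*, *Fosl1* and *Jun* had a D0 peak. Of 12 suprabasal genes 10 had one, with 8 for *Sbsn*, 7 for *Krtdap*, 5 for *Lor* and 4 for *Cdsn*, and *Sbsn*, *Krtdap*, *Dsc1* and *Krt1* had a D0 peak. In the SOX family it was 7 of 12, with 12 for *Sox5*, 7 for *Sox6* and 4 each for *Sox10* and *Sox7*, and *Sox15* had a D0 peak. Of 10 genes of the MLL3/4 and SWI/SNF complexes 6 had one, with 3 each for *Arid1b* and *Ncoa6*, and *Arid1a*, *Smarca4* and *Smarcc1* had a D0 peak.

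For the 4 lists of cells that the sort removed, the shares were 33.3% (melanocyte), 16.7% (fibroblast), 40.0% (endothelial) and 60.0% (immune). With 5 or 6 genes each, these lists are too short to be placed above or below the background of 51.5%. W1-only peaks were at 2 of 6 melanocyte genes (*Mitf* 7 and *Pmel* 2), 1 of 6 fibroblast genes (*Col1a1* 2), 2 of 5 endothelial genes (*Pecam1* 7 and *Cldn5* 1) and 3 of 5 immune genes (*Cd3e*, *Cd52* and *Itgam*, 2 each). *Pecam1* was the only gene of these 4 lists with a D0 peak. The lists are short and their genes differ in length, and no test of the lists was made.

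**Figure D5:**
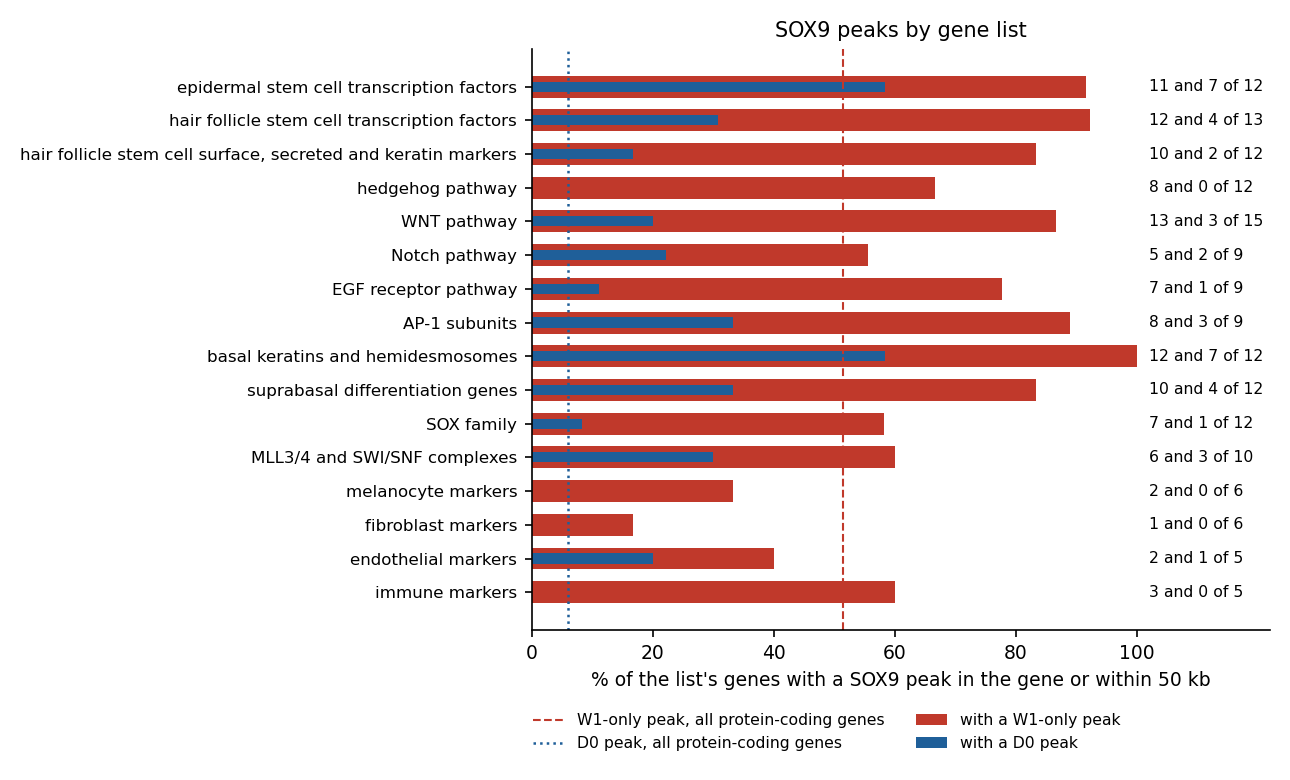
Percentage of the genes of each list with a W1-only peak (red) or a D0 peak (blue) in the gene or within 50 kb, with the background over 21951 protein-coding genes as a dashed (51.5%) and a dotted (6.0%) line. All 12 basal keratins and hemidesmosome genes had a W1-only peak, and 1 of 6 fibroblast genes did.

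By nearest start, the W1-only peaks spread over 6098 protein-coding genes, of which 3245 had a single peak, 784 had 5 or more and 177 had 10 or more. Those with the most were *Gata3* with 42, *Klf5* and *Rad51b* with 30 each, *Gm26657* with 28, *Myc* with 26, *Runx1* with 25, *2010111I01Rik* with 24, *Flrt3* and *Klf6* with 22 each, and *Arid5b* with 21. *Gata3*, *Klf5*, *Klf6*, *Myc* and *Runx1* encode transcription factors. Counted instead in the gene or within 50 kb, which need not be the same peaks, W1-only peaks numbered 2 at *Gata3*, 4 at *Klf5* and 12 at *Runx1*, but 35 at *Rad51b*, 29 at *2010111I01Rik* and 19 at *Arid5b*. Of the 593 genes nearest to a shared W1 peak, 468 (78.9%) were also nearest to a W1-only peak, and *Klf6* and *Myc* had 6 and 5 shared peaks. Among all 21924 protein-coding gene names, 6098 were nearest to a W1-only peak. Genes with much intergenic DNA around them can collect both kinds of peak by this measure.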

How the data were processed

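SOX9 and MLL3/4 CUT&RUN had been run on 2 samples per group, which the authors pooled before calling peaks, so each group is 1 list. Skewer trimming was followed by alignment to mm10 in Bowtie2 (2.2.9). Duplicates were removed with Picard and files handled with SAMtools (1.3.1). deepTools (3.1.2) gave coverage of fragments of at most 120 bp, and SEACR (stringent, 0.01) called the peaks, with SOX9 peaks kept above 1800. Versions follow the submitters' processing notes. The maximum signal and total signal of the deposited SOX9 lists are on the authors' RPKM scale. The paper describes CNR peaks as called on RPKM coverage, but the signal of the deposited MLL3/4 lists was not read as RPKM here. The MLL3/4 lists were used for overlap, and their total signal only to rank their peaks in 1 alternative.

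Depth was not stated. Every SOX9 maximum was a whole multiple of 30.7 RPKM at D0 and 57.6 RPKM at W1 (tolerance 0.02), which implies 32.5 M and 17.4 M fragments. W1 was thus the shallower list, and the limit of 1800 asked for fewer fragments there.

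Python (3.11.15), pandas (2.3.3), pysam (0.24.0) and scipy (1.17.1) were used for overlaps of at least 1 bp, words on both strands within 50 bp of the centre of the maximum, control windows 1 kb to either side, the annotation of starts (1 kb), exons and introns, and peaks within 50 kb of genes. Scripts were tested on simulated data. Peaks named were the 10 tallest of each class and the 5 highest and 5 lowest ratios. Genes named were the 10 nearest to most W1-only peaks and, per list, the 4 with most W1-only peaks and those with a D0 peak. A few genes that this rule names are not reported here. The members and lists were chosen with earlier results of these data known. Alternatives were other overlaps, thresholds, list lengths, windows, words and gene distances. The other SOX9 lists served only for recurrence, and the remaining lists were not used here.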

Additional observations from a re-analysis of the deposited data

How the results depend on the processing

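Of 110 values of 12 results recomputed under 15 alternatives, 64 stayed inside the 95% interval of the reported value and 46 did not. Asking for overlap over 50% or more of the shorter SOX9 or MLL3/4 peak, and merging of peaks within 500 bp, moved none. In the order D0 peaks met at W1, W1 peaks met at D0, median ratio, W1-only promoters, SOX word in W1-only and shared, AP1 word in shared, D0 MLL3/4 in W1-only and shared, and genes with a W1-only peak, a limit of 3600 RPKM gave 70%, 1.00%, 1.06, 13.3%, 28.5%, 26.2%, 21.4%, 61.2%, 90.5% and 20.5%. A W1 list of equal length gave 12.1%, 12.2%, 3.92, promoters 7.48% and 14.4% (W1-only and shared), SOX 40.3% and 42.3%, AP1 9.64% and 11.3%, MLL3/4 40.7% and 86.6%, and genes 4.00%, and with it the order of the SOX shares of the W1-only and shared classes turned, within their intervals. At least 59 fragments in both lists, chosen after seeing the data, gave 64.5%, 10.5%, 2.05, W1-only promoters 13.9%, SOX 28.6% and 15.7%, W1-only AP1 13.3%, W1-only MLL3/4 58.7% and genes 21.9%. These 3 alternatives keep fewer peaks by construction. The limit of 59 fragments kept all 792 D0 peaks and 4851 W1 peaks. It and the list of equal length select on the W1 maximum alone. Their ratios of 2.05 and 3.92 are raised by that selection and do not check the ratio of 1.75. Leaving out masked windows, also chosen after seeing the data, gave 93.3% of D0 peaks met at W1. Autosomes alone gave 50.6% of genes, a gap of up to 500 bp 5.11% of W1 peaks met at D0, promoters of 2.5 kb 30.7% and 29.5%, the longer SOX words CCATTGTT and CCTTTGTT 5.63% and 3.97%, windows of 100 bp to each side SOX 26.9% and 17.9% and AP1 23.3% and 53.2%, the stronger 50% of MLL3/4 peaks 51.2% and 94.0%, genes with 10 kb to either side 30.5%, and total signal a ratio of 2.63. No replicate could be left out. No paired analysis was possible because the authors pooled the 2 samples of each group into 1 list.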
